A study of Mus musculus with 3 samples.

Results

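The 5′ ends of odorant receptor genes on mouse chromosome 16 were examined at the 36 promoter positions that the authors' table names there, of 1085 named positions in all. Members were the rows on chromosome 16 with a name that stands in 1 row only, without unannotated pseudogenes, and this rule left out 0 of the 36 rows. They fell into 27 positions near 59 Mb, from 58763361 to 59364195, and 9 positions below 25 Mb, namely Olfr161 alone at 3591065 and 8 positions from 19286866 to 19630030 (build mm9). Each name was looked up in a RefSeq gene table, where 34 matched by symbol, Olfr174 matched as a synonym of Olfr175 and Olfr176 did not match. Of the 35 matched names, 33 are protein-coding genes and 2, Olfr192 and Olfr197, are transcribed pseudogenes.

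Odorant receptors are G protein-coupled receptors of olfactory sensory neurons, and each neuron uses very few genes of the family. Their genes lie in clusters, and the coding sequence usually fills a single exon that is joined by splicing to short upstream exons. The transcription start can therefore lie kilobases before the coding sequence, and it has to be mapped from the RNA. Relatives within the family carry MOR subfamily names, which were taken from the synonyms of the RefSeq table. Near 59 Mb, 10 members belonged to MOR182, 7 to MOR183 and 7 to MOR184. Olfr193 carried several subfamily names, and Olfr176 and Olfr192 carried none. Below 25 Mb, 3 belonged to MOR273, 2 to MOR279 and 1 each to MOR131, MOR270, MOR271 and MOR272.

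RNA came from olfactory epithelium pooled over 5 adult C57/Bl6 mice per sample, at an age of 6 to 8 weeks. RLM-RACE tags the 5′ ends of capped transcripts with an oligonucleotide, complementary DNA was primed with degenerate oligonucleotides from receptor coding regions, and the amplified ends were hybridised to tiling arrays. Stringent, 1 array, carried a product of nested PCR, and High Coverage, 2 arrays, carried products of PCR without nesting. Header lines call the input of High Coverage 1 female and that of the other High Coverage array male. Array and sex therefore cannot be told apart. Markers of other cell types were not examined.

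The MAT score of a probe compares its window of neighbouring probes with the null of its own array, and scores are not scaled between arrays. A score was therefore also given as its percentile among the 2188086 scored probes of its array. The authors called regions above a MAT score of 2.52 on Stringent, with 2.53 on High Coverage 1 and 2.99 on High Coverage 2. Chromosome 16 carried 134 regions on Stringent, with 205 on High Coverage 1 and 222 on High Coverage 2, or 2.19, 3.36 and 3.63 per 1000 scored probes, against 1.65, 3.32 and 2.88 over all chromosomes. With 1 array against 2 and promoters that are not replicates, no test was run. Precision is limited by how few arrays there are, and each interval after a share is an exact 95% Clopper-Pearson interval that covers only the counting of promoters. No source used here says how the named positions were chosen, and whether signal on these arrays entered that choice was not tested.

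RefSeq windows from 250 bases before to 50 bases after the annotated gene start (build GRCm38.p6) were found for 26 of the 36 members. Among their 325 pairs, the median identity over 300 bases was 48.3%, and the first 2 pairs stood far above it. Olfr169 and Olfr170 shared 93.7% and Olfr191 and Olfr193 shared 80.7%. The windows of Olfr191 and Olfr193 are offset by 25 bases, and over the 275 bases that both hold they had 8 differences, or 97.1% identity, the highest of all pairs on that measure. The third pair, Olfr164 and Olfr165, shared 69.0%, and the next 65.7%. The first and second pairs are shown because these genes are described together further on. Olfr191 and Olfr193 had the highest lowest percentiles over the arrays among the members. Olfr169 and Olfr170 had unequal High Coverage signal. Capitals mark bases that have no identical partner in the alignment of the stretch both windows hold.
Olfr169: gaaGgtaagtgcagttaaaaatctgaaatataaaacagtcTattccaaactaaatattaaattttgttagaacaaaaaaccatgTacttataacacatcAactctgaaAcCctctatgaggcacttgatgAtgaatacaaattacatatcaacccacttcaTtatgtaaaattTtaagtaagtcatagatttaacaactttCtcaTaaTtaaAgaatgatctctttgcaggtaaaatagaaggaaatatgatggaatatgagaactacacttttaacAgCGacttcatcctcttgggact
Olfr170: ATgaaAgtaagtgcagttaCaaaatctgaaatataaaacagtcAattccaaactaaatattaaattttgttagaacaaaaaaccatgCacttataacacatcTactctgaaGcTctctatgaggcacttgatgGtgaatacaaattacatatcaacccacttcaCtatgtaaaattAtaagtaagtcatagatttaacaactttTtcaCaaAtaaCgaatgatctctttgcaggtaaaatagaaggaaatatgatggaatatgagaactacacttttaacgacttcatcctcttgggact
Olfr191: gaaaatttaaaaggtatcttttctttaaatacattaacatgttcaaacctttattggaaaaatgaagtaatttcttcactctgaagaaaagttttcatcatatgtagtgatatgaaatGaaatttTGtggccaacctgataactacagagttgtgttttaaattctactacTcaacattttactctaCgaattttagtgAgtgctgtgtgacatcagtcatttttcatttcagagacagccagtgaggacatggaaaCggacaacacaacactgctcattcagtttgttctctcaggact
Olfr193: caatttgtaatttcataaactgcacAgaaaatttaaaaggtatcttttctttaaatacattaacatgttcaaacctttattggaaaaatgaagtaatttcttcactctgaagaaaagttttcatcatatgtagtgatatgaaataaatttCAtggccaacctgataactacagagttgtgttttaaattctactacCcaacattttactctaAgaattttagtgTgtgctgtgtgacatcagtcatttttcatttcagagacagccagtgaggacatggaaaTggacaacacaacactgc
These windows lie at chr16:19566832-19567131 for Olfr169, chr16:19606617-19606916 for Olfr170, chr16:59086432-59086731 for Olfr191 and chr16:59110584-59110883 for Olfr193, all on the minus strand of GRCm38.p6. The RefSeq genes are 942, 942, 930 and 1009 bases long, and their start is not the mapped position of the files. The mapped starts in mm9 are 19571867 for Olfr169, 19611806 for Olfr170, 59089659 for Olfr191 and 59111745 for Olfr193. As numbered, each lies outside the window printed here. The builds were not converted, and whether a window holds the mapped start was not tested.

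Motifs known from promoters of receptor genes were searched in the same 26 windows on both strands. These windows lie at RefSeq gene starts and were not placed at the mapped starts. Of the 35 matched gene models, 27 are shorter than 2000 bases. The counts below therefore describe these windows and may not describe the mapped promoters. The palindromic Olf-1/EBF motif and its shorter core CCCNNGGG, which lies inside it, were found in 0 windows. The longer motif was in 0.527% of the 948 receptor windows of the table and 0.904% of all 32851 windows, and the core in 3.06% and 13.7%. The homeodomain motifs TAATTA and TAATTG were in 4 and 3 windows, or 15.4% and 11.5%, against 18.6% and 23.2% of receptor windows and 5.29% and 8.00% of all windows. The TATA motif TATAAA was in 11, or 42.3%, against 41.0% of receptor windows and 13.6% of all windows. The median A and T content was 65.2% in the members, 65.0% in receptor windows and 47.3% in all windows. A match is only a stretch of letters, and no match says only that the letters are not in this window.

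At the named starts, Stringent gave a called region within 100 bp at 28 of the 36 members, or 77.8% (60.8 to 89.9), against a background of 61.7% of all named positions. High Coverage 1 had one at 16, or 44.4% (27.9 to 61.9), against 36.4%, and High Coverage 2 at 17, or 47.2% (30.4 to 64.5), against 43.6%. Both High Coverage shares were near their backgrounds, and the Stringent background lay just inside the lower end of the interval. A region stood on all 3 arrays at 12 members, against 17.3% of all positions, on 2 arrays at 6, against 25.8%, on 1 at 13, against 38.1%, and on none at 5, against 18.8%. The median of the highest MAT score within 100 bp was 9.57 for members (0.191 to 26.0) and 4.09 for all other named positions on Stringent. High Coverage 1 gave 1.31 (-0.398 to 30.7) and 1.44, and High Coverage 2 gave 1.91 (-0.745 to 26.2) and 2.06. Across the 36 members the highest scores correlated with Spearman's rho = 0.591 between the High Coverage arrays, 0.536 between Stringent and High Coverage 1 and 0.674 between Stringent and High Coverage 2. Over all 1079 scored named positions, rho was 0.629 between the High Coverage arrays, -0.133 between Stringent and High Coverage 1 and 0.0672 between Stringent and High Coverage 2. These are descriptions over positions that share their arrays.

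**Figure D1:**
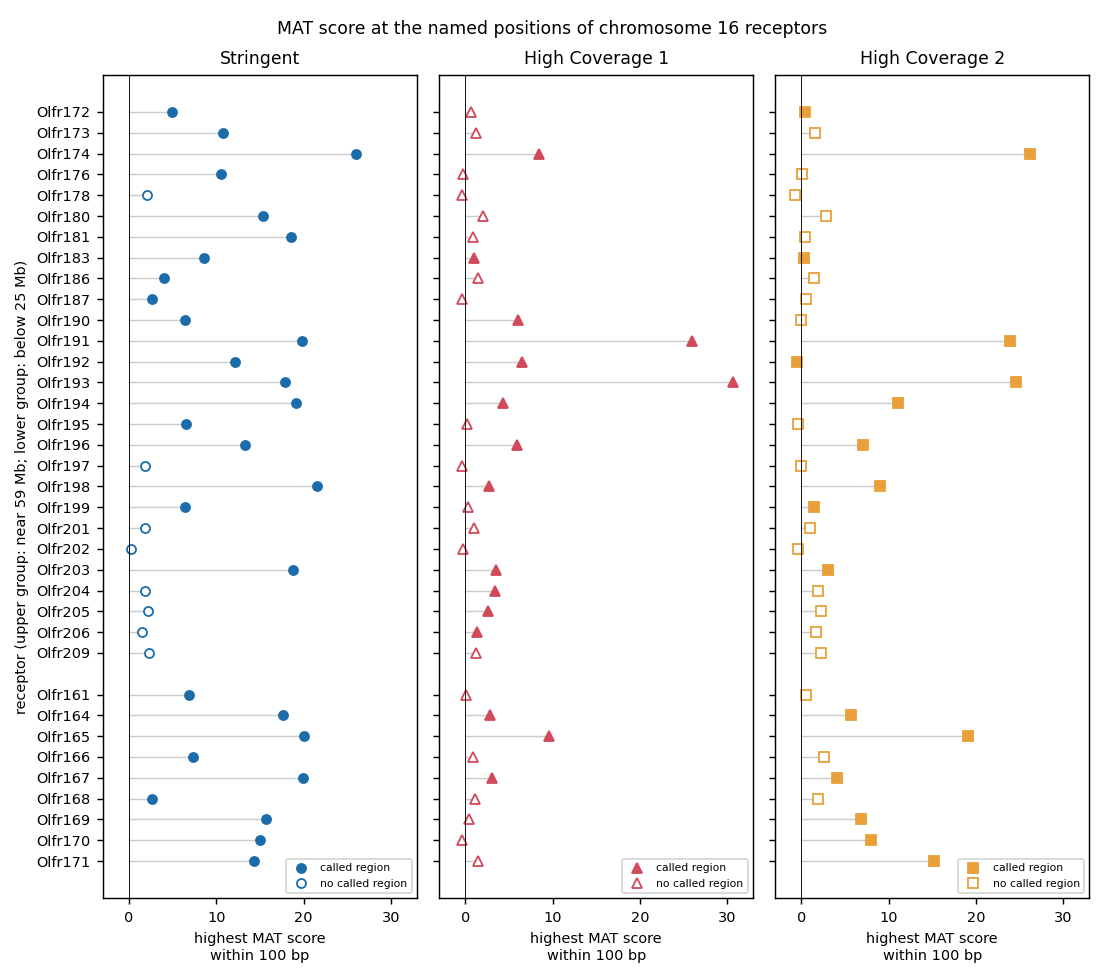
Highest MAT score within 100 bp of each named position (horizontal axis, no unit) for the 36 receptors (rows, in genome order within each group) on Stringent, High Coverage 1 and High Coverage 2. Filled symbols have a called region within 100 bp and open ones none, and Olfr191 and Olfr193 stand farthest right on High Coverage 1, Olfr174 on Stringent and High Coverage 2.

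The strongest starts lay near 59 Mb. Olfr191, at 59089659 on the minus strand, scored 19.8 on Stringent, with 26.0 on High Coverage 1 and 23.9 on High Coverage 2, and its lowest percentile over the arrays ranked 1 among all named positions. Olfr193, 22086 bp away, scored 17.9, 30.7 and 24.6 and ranked 4. Both are thus high with and without nesting. Their profiles peaked 83 bp downstream of the position on Stringent and 103 bp downstream on both High Coverage arrays for Olfr191, and 99 bp downstream on all 3 arrays for Olfr193. The Stringent region of Olfr191 ran from -66 to 303 bp and that of Olfr193 from -57 to 295 bp. Olfr174, a MOR184 receptor at 58826631, scored 26.0 on Stringent, with 8.46 on High Coverage 1 and 26.2 on High Coverage 2. It ranked 11, after Olfr165 below 25 Mb, which ranked 7. Its scores were the highest of the 36 members on Stringent and High Coverage 2. The RefSeq windows of Olfr191 and Olfr193 are 97.1% identical over the bases both hold. They were not placed at the mapped starts and need not hold the probes scored here. Whether product of one gene binds probes of the other was not tested.

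Between Olfr191 and Olfr193 lies the pseudogene Olfr192, at 59101803. It scored 12.2 on Stringent and 6.48 on High Coverage 1, against -0.450 on High Coverage 2. The gap between its High Coverage percentiles was 45.1 points, the widest among the members. The gap did not extend over the whole start. From -100 to 400 bp the highest scores were 20.9, 13.2 and 8.63, at 155, 170 and 170 bp, so that High Coverage 2 lacked the first part of the signal and not the peak. Olfr190, a MOR183 receptor on the other side of Olfr191, showed the same form, with 6.35, 6.03 and -0.0294 within 100 bp, and 21.5, 14.7 and 12.2 at 283, 283 and 289 bp. Scores above the threshold on every array were also found at Olfr196 of MOR183, with 13.3, 5.96 and 7.01. The same held for the MOR182 receptors Olfr194, with 19.1, 4.36 and 11.1, and Olfr198, with 21.5, 2.70 and 9.04. The 2.70 of Olfr198 on High Coverage 1 lay just above the threshold of 2.53. All 3 had a region on every array.

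Below 25 Mb, Olfr165 of MOR279 led. Olfr165, at 19408148, scored 20.1 on Stringent, with 9.62 on High Coverage 1 and 19.1 on High Coverage 2 and ranked 7 among all named positions. Olfr164, of the same subfamily and 121282 bp away, scored 17.6, 2.83 and 5.73. Both had Stringent regions over 500 bp long, from -47 to 521 bp at Olfr165 and from -44 to 522 bp at Olfr164, and the region of Olfr165 ran from -47 to 506 bp on High Coverage 1 and from -52 to 500 bp on High Coverage 2. Olfr167 of MOR272 scored 20.0, 3.12 and 4.06 and ranked 58, next to Olfr164 at 61. Lower values were found at Olfr166 of MOR270, with 7.27, 0.868 and 2.55, at Olfr168 of MOR271, with 2.64, 1.17 and 1.92, and at Olfr161, with 6.81, 0.0802 and 0.492. These 3 had a Stringent region and none on High Coverage.

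The 3 MOR273 receptors Olfr169, Olfr170 and Olfr171 are neighbours with like values on Stringent. Olfr169 scored 15.7 on Stringent, with 0.429 on High Coverage 1 and 6.79 on High Coverage 2. Olfr170 scored 15.0, -0.326 and 8.02. Olfr171 scored 14.3, 1.47 and 15.2. All 3 therefore had a called region on Stringent and High Coverage 2 and none on High Coverage 1, and in the wider stretch from -100 to 400 bp High Coverage 1 reached at most 1.47 at any of them. Olfr170 had the second widest gap among members, 57.3 percentile on High Coverage 1 and 98.2 on High Coverage 2. Only 14 scored probes lay in its window, against 41 for Olfr169 and 40 for Olfr171. The windows of Olfr169 and Olfr170 printed above are 93.7% identical, but they need not hold the probes scored here. How far the signals of these genes are independent was not tested. By the limit of 34.3 percentile points, the 95th percentile of the High Coverage gap over all named positions, Olfr192 was the single member higher on High Coverage 1 (background 1.67%) and Olfr170 the single member lower (background 3.34%).

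**Figure D2:**
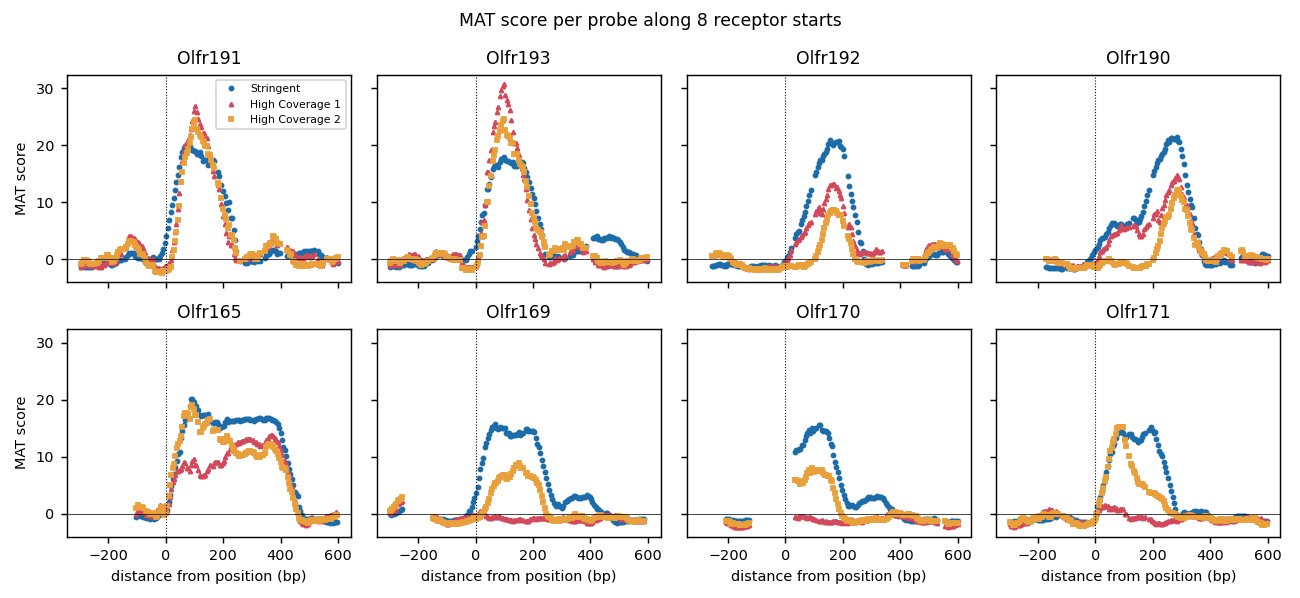
MAT score per probe (vertical axis, no unit) against the distance from the named position in bp, in the direction of transcription, for 8 receptors on 3 arrays. Olfr191 and Olfr193 peak near 100 bp on every array, and High Coverage 2 lacks the first part of Olfr192 and Olfr190. From -100 to 400 bp, High Coverage 1 reaches at most 1.47 at the 3 MOR273 receptors.

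The clusters were then compared. A Stringent region lay at 19 of 27 members near 59 Mb, or 70.4% (49.8 to 86.2), and at 9 of 9 below 25 Mb, or 100% (66.4 to 100). On High Coverage 1 there were 13, or 48.1% (28.7 to 68.1), near 59 Mb and 3, or 33.3% (7.49 to 70.1), below 25 Mb. On High Coverage 2 there were 11, or 40.7% (22.4 to 61.2), near 59 Mb and 6, or 66.7% (29.9 to 92.5), below 25 Mb. The intervals of the clusters overlapped on every array. The median percentile was 95.4 near 59 Mb and 98.5 below 25 Mb on Stringent, 90.8 and 89.4 on High Coverage 1, and 89.5 and 97.3 on High Coverage 2. With the window widened to 500 bp on each side, the difference in median percentile (near 59 Mb minus below 25 Mb) was 0.966 points in place of -3.05 on Stringent and 1.53 in place of -7.77 on High Coverage 2. With 50 bp on each side it was -1.54 in place of 1.41 on High Coverage 1, so the order of the median percentiles changed with the window on each array. The region share kept its order on Stringent, at -37.0 points at the position itself and -11.1 with 500 bp, and on High Coverage 1, at 11.1 and 40.7 points. On High Coverage 2 it was -33.3 at the position itself and 7.41 with 500 bp. The percentile on High Coverage 2 exceeded that on High Coverage 1 at 11 of 27 members near 59 Mb and at 8 of 9 below 25 Mb (background 46.7%).

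The clusters also differed in layout. Near 59 Mb, 24 of the 27 positions were on the minus strand, and Olfr183, Olfr195 and Olfr203 were on the plus strand. Neighbouring positions lay a median of 17790.5 bp apart (9200 to 66527). In the group of 8 near 19 Mb, all but Olfr166 were on the minus strand, and the median distance was 38190 bp (13292 to 121282). The median number of scored probes in a window was 38 near 59 Mb and 38 below 25 Mb.

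In both clusters the scores climbed just past the position, on its downstream side. On Stringent, the median of the mean score from 50 to 100 bp downstream was 6.03 near 59 Mb and 13.4 below 25 Mb. From 150 to 200 bp it was 12.3 and 13.7, so that the medians lay closer together there. From 100 to 50 bp upstream it was -0.912 near 59 Mb and -0.991 below 25 Mb. High Coverage 2 had 0.127 near 59 Mb and 5.43 below 25 Mb in the bin from 50 to 100 bp. High Coverage 1 had 0.368 near 59 Mb and 0.388 below 25 Mb. The mean over 150 bp downstream exceeded that over 150 bp upstream at 35 of 35 members with both values on Stringent, at 28 on High Coverage 1 and at 29 on High Coverage 2. The share over all named positions was not computed for this measure. The count cannot serve as support for the positions, since whether signal on these arrays entered their choice was not tested. Where a start carried a region, the best-scoring one began a median of 46 bp before the position on Stringent. It had a median length of 362 bp (124 to 652) and ended 328.5 bp after the position. At the High Coverage starts the median lengths were 234 and 276 bp. Called regions can reach past the probes that pass the threshold. The Stringent region of Olfr161 ran from -30 to 210 bp. Its scores passed the threshold only from 32 bp, with 2.72, to 148 bp, with 2.81, and stood at -1.99 at -27 bp. A region edge before the position therefore does not show signal upstream of it, and the lengths can exceed the stretch above the threshold. At 2 of the 16 members with a region on High Coverage 1 and 4 of the 17 on High Coverage 2, a region reached into the window while the scores there stayed under the threshold.

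**Figure D3:**
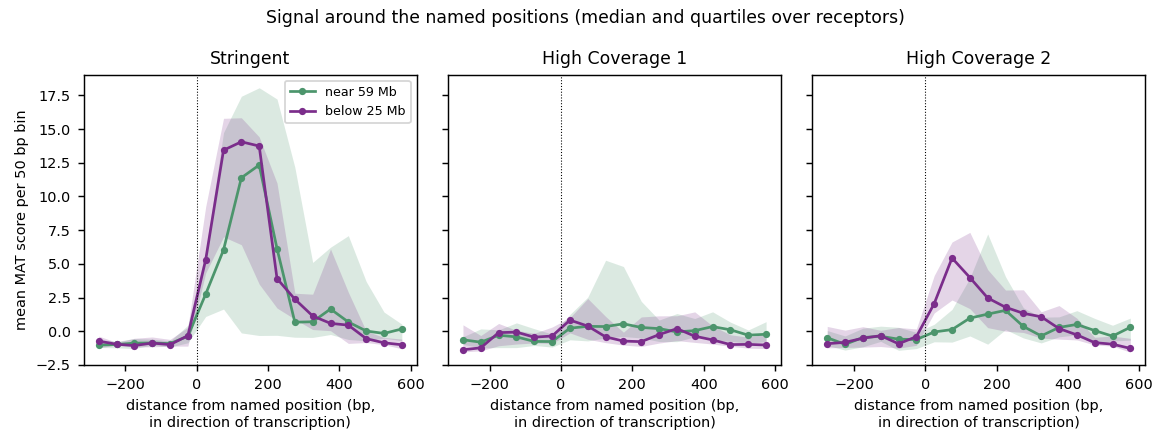
Mean MAT score per 50 bp bin (vertical axis, no unit) against the distance from the named position in bp, in the direction of transcription, for 27 receptors near 59 Mb and 9 below 25 Mb. Lines are medians and bands quartiles over receptors, and the Stringent medians reach 12.3 near 59 Mb and 14.1 below 25 Mb.

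The 8 members without a Stringent region at the position were all near 59 Mb, and 6 of them were among the last 8 named positions of the chromosome. These were Olfr201, Olfr202, Olfr204, Olfr205, Olfr206 and Olfr209, all of MOR182. Olfr199, the first of the last 8 positions, and Olfr203, within the row, had a Stringent region and are of the same subfamily. Olfr202, the lowest member on Stringent, scored 0.191 there, with -0.275 on High Coverage 1 and -0.339 on High Coverage 2. Olfr201 scored 1.80, 1.06 and 0.941, and Olfr206 scored 1.47, 1.36 and 1.65. Olfr204 scored 1.88, 3.41 and 1.90 and Olfr205 scored 2.18, 2.58 and 2.25, and these and Olfr206 had their region on High Coverage 1 alone. The region counted for Olfr206 lay wholly upstream of the position, from -186 to -62 bp, with a score of 2.73. That of Olfr205 scored 2.58, just above the threshold of 2.53. The plus-strand gene Olfr203, which lies between Olfr202 and Olfr204, scored 18.8, 3.56 and 3.04. The others were Olfr178 of MOR184, with 2.04, -0.318 and -0.745, and the pseudogene Olfr197, with 1.81, -0.398 and -0.0936. Over the 10 MOR182 members the share with a Stringent region was 40.0% (12.2 to 73.8), against 85.7% (42.1 to 99.6) of 7 in MOR183 and of 7 in MOR184. The intervals overlap.

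Signal was present further downstream at all 8. For 7 of the 8, a Stringent region began 268 to 562 bp downstream, with scores of 15.0 to 21.9. At Olfr209 it ran from 293 to 824 bp with a score of 21.9, and at Olfr202 from 325 to 634 bp with a score of 16.5. At Olfr204 it began at 562 bp, and regions began at 596 bp on High Coverage 1 and at 590 bp on High Coverage 2. Olfr201 was the exception, with its first Stringent region at 3595 bp, where it scored 23.9. The strongest Stringent region of each of the 8 began further on, beyond 1 kb.

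Signal further downstream was common to nearly all members. A region wholly between 100 bp and 10 kb downstream, and before the next named position, was found for 34 of 36 members on Stringent (background 88.6%) and for 36 on each of High Coverage 1 (96.5%) and High Coverage 2 (93.8%). The members' counts are near these backgrounds. The score of the strongest such region had a median of 20.4 on Stringent (12.0 to 29.2), 13.4 on High Coverage 1 (2.87 to 46.65) and 14.8 on High Coverage 2 (3.6 to 41.2). At the other named positions with such a region the medians were 16.3, 7.82 and 10.4. The region scores are the authors' own. On Stringent the strongest downstream region outscored the highest score from -100 to 400 bp at 26 of 34 members, on High Coverage 1 at 33 of 36 and on High Coverage 2 at 33 of 36. The strongest downstream region is the highest of several, which by itself favours it. The comparison was not made over the other named positions, so it does not set these members apart.

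These regions often began at the same place on all arrays. Among the 34 members with one on every array, the strongest began within 100 bp of the same distance at 18, all of them near 59 Mb, and 7 of these were the 7 MOR183 members. This count was not made over the other named positions. Whether it is particular to these members is therefore unknown. At Olfr186 it began 2520 bp downstream on all 3 arrays, with scores of 22.2, 28.8 and 33.6, and at Olfr190 2897 bp downstream on all 3, with 23.9, 27.9 and 26.8. Olfr193 had the strongest region of the chromosome on High Coverage 2, from 1206 to 1760 bp, and its strongest downstream regions scored 27.7, 40.1 and 41.2 on the 3 arrays. At Olfr191 the strongest regions began at 3223, 3252 and 3257 bp and scored 24.3, 30.3 and 35.9. The median distance to the strongest region on Stringent was 2280 bp near 59 Mb and 3036 bp below 25 Mb. Within MOR184 it ranged from 1781 to 2484 bp, and in MOR182 from 935 bp at Olfr198 to 6623 bp at Olfr201.

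The 2 members without a Stringent region downstream were Olfr164 and Olfr165, both of MOR279. On High Coverage 1 their strongest downstream regions scored 3.85, the peak of the start itself at Olfr164, and 2.87, and on High Coverage 2 they scored 4.01 and 3.6. From -100 to 400 bp their highest scores were 3.85 and 13.8 on High Coverage 1 and 5.73 and 19.1 on High Coverage 2. The reverse order was seen at Olfr166, whose strongest downstream region scored 14.6 on Stringent, with 46.65 on High Coverage 1 and 28.4 on High Coverage 2, while its start scored 7.27, 0.868 and 2.55. That High Coverage 1 region, from 2782 to 3722 bp, ranked 3 among all regions of its array. The strongest Stringent region of the chromosome, with a score of 29.2, lay 5395 to 7025 bp downstream of Olfr167 and ranked 4 on its array. The strongest downstream regions of Olfr169, Olfr170 and Olfr171 of MOR273 had like scores within each array. These were 19.6, 19.7 and 19.2 on Stringent, 8.66, 10.4 and 9.11 on High Coverage 1 and 12.5, 12.3 and 12.6 on High Coverage 2. The regions were not all at like distances. On Stringent they began at 2968 and 3036 bp at Olfr169 and Olfr170, but at 4748 bp at Olfr171. On High Coverage 1 they began at 5023, 5167 and 4965 bp, and on High Coverage 2 at 4906, 5077 and 5284 bp. Near those distances, Stringent regions of Olfr169 and Olfr170 scored 18.5 and 18.7. High Coverage 1 thus carried called regions downstream at these 3 genes and none within 100 bp of their starts, where Olfr171 stood at the 91.5 percentile.

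**Figure D4:**
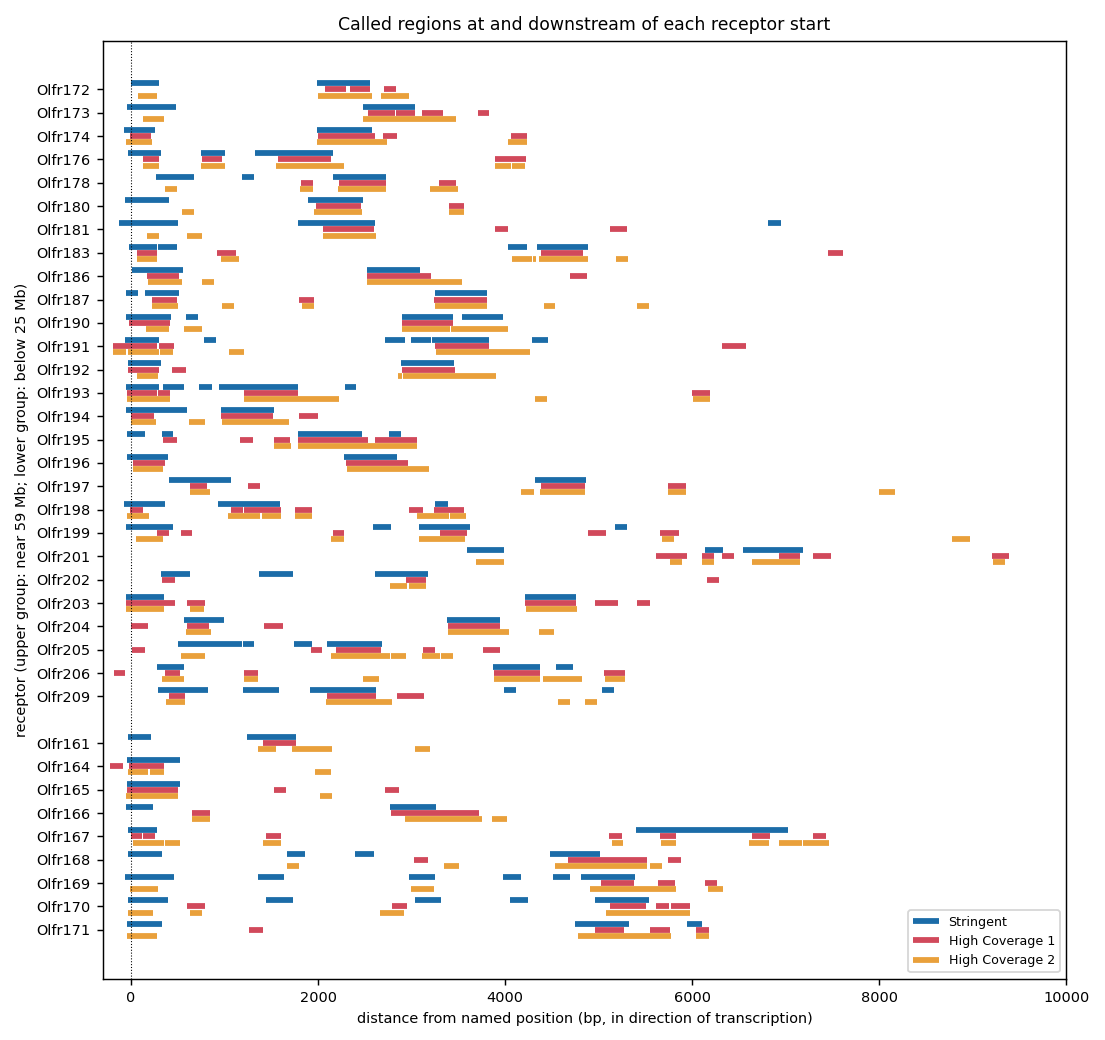
Called regions (bars) of Stringent, High Coverage 1 and High Coverage 2 for each receptor (rows) by distance from its named position in bp, in the direction of transcription, at the position and up to 10 kb downstream before the next named position. At 18 of the 27 receptors near 59 Mb the strongest downstream region begins within 100 bp of the same distance on all 3 arrays. No such count was made for the other named positions.

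**Figure D5:**
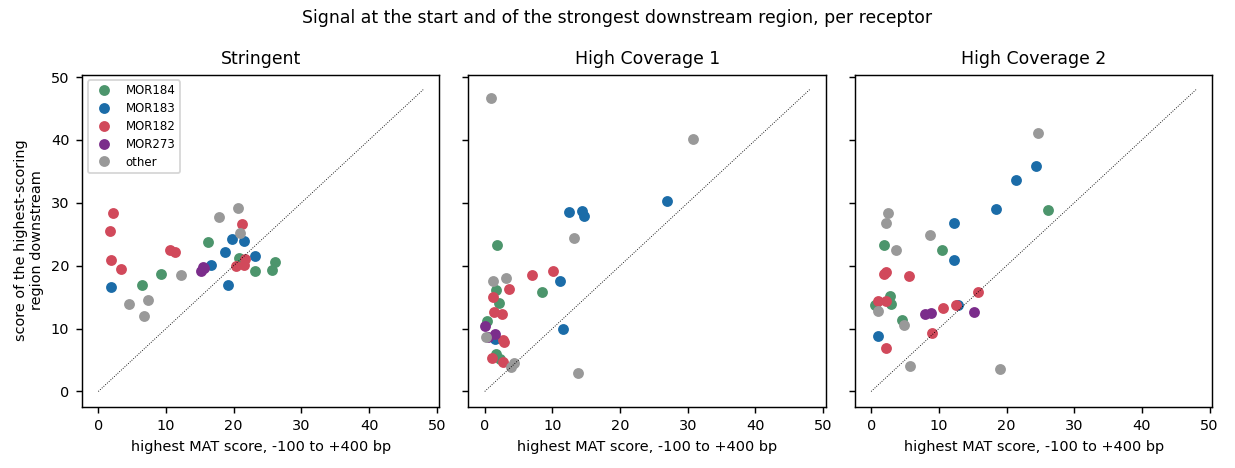
Score of the strongest downstream region (vertical axis) against the highest MAT score from -100 to 400 bp (horizontal axis), both without unit, for each receptor with a downstream region on that array, coloured by MOR subfamily. Points above the dotted line of equality number 26 of 34 on Stringent, with 33 of 36 on High Coverage 1 and 33 of 36 on High Coverage 2. Other named positions were not counted.

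Stringent was set against High Coverage member by member. The Stringent percentile was above both High Coverage percentiles at 27 of 36 members (background 54.3%) and below both at 4 (background 30.7%). Beyond the limit of 34.3 percentile points, 1 member stood higher on Stringent (background 8.8%) and 0 stood lower (background 1.2%). The 1 was Olfr178, at the 92.9 percentile on Stringent, with 57.6 on High Coverage 1 and 40.4 on High Coverage 2. Its Stringent score of 2.04 lies under the threshold for a region, and it had a region on no array. Without High Coverage 1 the count was 3, and without High Coverage 2 it was 5. The next were Olfr197 with a difference of 32.5 points, Olfr176 with 30.6 and Olfr195 with 30.2. Olfr176 scored 10.6 on Stringent, with -0.242 on High Coverage 1 and 0.105 on High Coverage 2, and Olfr195 scored 6.49, 0.208 and -0.403. The lowest differences were those of Olfr204, at -1.62 points, Olfr205, at -1.29, Olfr193, at -0.522, and Olfr196, at -0.306. On a scale of median and MAD in place of percentiles, 21 members stood higher on Stringent (background 40.7%) and 0 lower (background 1.95%). The MAD of all scores was 0.428 on Stringent, 0.583 on the first and 0.656 on the second High Coverage array, and its part in the count of 21 was not tested.

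Regions of the chromosome were mostly away from the positions. On Stringent, 21.6% of the 134 regions lay within 100 bp of a named position and 50% lay 1 to 10 kb from one. High Coverage 1 had 9.76% and 58.5% in these classes, and High Coverage 2 had 8.56% and 61.7%. Over 10 kb from any position lay 17 regions on Stringent, with 39 on High Coverage 1 and 34 on High Coverage 2. Density was highest in the tiled block near 59 Mb, with 2.67, 3.89 and 4.25 regions per 1000 scored probes on Stringent, High Coverage 1 and High Coverage 2, against 2.10, 3.22 and 3.63 in the block near 19 Mb and 0.730, 1.56 and 1.56 in the block that holds Olfr161. A short tiled block from 10788882 to 10798880 held no named position and 1, 4 and 2 regions.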

How the data were processed

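Scores and regions were read as the authors deposited them. Per the file headers, the authors made 1 MAT score per probe from 1 array with no control array (bandwidth 50, maximum gap 30, at least 5 probes, natural log scale) and called regions per array at a false discovery rate of 0 percent. Coordinates are of mm9, as the submitters' processing notes name it. The deposited table gives 1 position and strand per promoter. The header of Stringent names a probe map that differs from that of the other arrays.

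Scores of exactly 0 on all 3 arrays, 5.42% of 2313448 probes, were left out. A position was widened by 100 bp on each side, and its highest score was ranked among all scored probes of the array. Members, subfamilies, windows and lists were chosen with earlier results of these data known. Genes were named by a rule: Olfr165, Olfr191 and Olfr193, in each cluster the 6 members with the highest lowest percentile and the 3 with the lowest highest percentile, the 4 members most above and the 4 most below High Coverage on Stringent, the 3 widest High Coverage gaps and the 3 most alike pairs. Others named stand in full lists of a subfamily or class, or were chosen after their values were seen. Starts and downstream regions were compared at the 2 decimals of the deposited region scores. The stretch from -100 to 400 bp, the identities of RefSeq windows and the first downstream regions were added after the data were seen, and protein sequences were not used here. Positions in the clusters were split at 25 Mb, and from 55 to 63 Mb was called near 59 Mb. The steps were tested on simulated data. The tools were edlib 1.3.9.post1, scipy 1.17.1, matplotlib 3.10.9, pandas 2.3.3 and numpy 2.4.6 under Python 3.11.15.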

Additional observations from a re-analysis of the deposited data

How the results depend on the processing

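The width of the window changed most results. With 500 bp on each side, a region was found at 91.7% of members on Stringent, at 63.9% on High Coverage 1 and at 72.2% on High Coverage 2, and 19 members had one on all 3 arrays. The median percentiles were then 99.5, 96.2 and 98.4, against 95.016, 88.1 and 90.0 with 50 bp and 93.2, 70.2 and 73.5 with the mean score. For near 59 Mb minus below 25 Mb, the region share with 500 bp was -11.1 points on Stringent and 40.7 on High Coverage 1, and it turned in sign to 7.41 on High Coverage 2. At the position itself it was -33.3 points on High Coverage 2, and with at least 50 bp of overlap -40.7. The median percentile turned with 500 bp on Stringent, to 0.966, and on High Coverage 2, to 1.53, and with 50 bp on High Coverage 1, to -1.54. With the mean score it was -27.2 on High Coverage 2. Members higher on Stringent numbered 2 with 50 bp, 0 with 500 bp, 6 with the mean score, 21 on the median and MAD scale, and 3 to 5 when either High Coverage array was left out. The cause was not tested. The other 67 recomputed values, which include gaps of 1 Mb between clusters, the 3608 highest regions, at least 50 bp of overlap, all rows of the chromosome and, added after seeing the data, scores above the threshold, kept their direction, with shares inside the interval of the main share (of each cluster's share, for differences), percentiles within the spread between the High Coverage arrays and counts within 1.5 times. No paired analysis was possible because the only Stringent array carries no number. With 1 Stringent array, its own spread is unknown.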
